A study of Mus musculus with 10 samples.

Results

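Outer hair cells (OHCs) of the adult mouse cochlea were described here by what their RNA is made of. The part of the data used is 3 OHC libraries of the 5 libraries of the series, the other 2 being inner hair cell (IHC) libraries, chosen by the cell type that the labels give and by no measured value. Each OHC library was sequenced in 2 lanes, so that 6 of the 10 columns of the expression table belong to OHCs, and the mean of both lanes was taken as the value of a library. OHCs and IHCs came from untreated adult CBA/J mice of 28 to 32 days, an inbred strain with normal hearing at that age, and about 1000 cells of a type, picked by shape with a suction pipette after enzymatic digestion of the organ of Corti, were pooled for each library. The labels give neither the sex of the mice nor which mice went into a pool, so the spread between libraries is that between pools of picked cells. In such pooled samples a lower level of a transcript cannot be told apart from fewer cells that hold it.

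OHCs sit in 3 rows on the basilar membrane and amplify its vibration. Their lateral wall is packed with prestin, the motor protein encoded by Slc26a5, which shortens and lengthens the cell with its membrane potential. Deflection of the hair bundle opens mechanotransduction channels, potassium leaves through channels of the basolateral membrane, and nerve fibres from the brainstem end directly on the cell and act through a nicotinic receptor of 2 kinds of alpha subunit, alpha9 and alpha10. Levels are given as RPKM, reads per kilobase of exon, scaled to the depth of the lane, which divides out gene length and so allows different genes to be set side by side. A share is the percentage of the summed RPKM of all 48440 listed genes in a library, and errors are SD over the 3 libraries (n = 3) unless stated.

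The number of reads behind the RPKM was inferred from the RPKM values and gene lengths. It came to 23083994, 21010516 and 19987044 in OHC libraries 1, 2 and 3, and 86.6% to 86.8% of those of a lane lay in genes. For a gene of 2 kb, 3 reads correspond to 0.065 to 0.075 RPKM in one library and to 0.0234 RPKM over the 3 together, and such limits cover counting error only. In OHCs, 1 lane stood apart from the others. An exact binomial test on the reads of the 2 lanes of a library, with Benjamini-Hochberg adjustment at 0.05 and at least 20 reads per gene, found 725 of 13287 genes (5.46%) to differ in library 1, 1 of 13098 (0.00763%) in library 2 and 0 of 13043 (0%) in library 3. Without adjustment, 1421 (10.7%), 617 (4.71%) and 594 (4.55%) genes passed 0.05. The 725 genes held 9.4% of the OHC RPKM, and those named below are marked and given for both lanes, apart from the 10 most variable genes, which are described together. The lanes of the IHC libraries differed in the same way, by 681 of 12812 genes (5.32%) in library 1 and 679 of 12677 (5.36%) in library 2. Of the 725 genes, 544 (75%) and 526 (72.6%) were among these, which is 79.9% and 77.5% of the genes called in the IHC libraries, and all 544 and all 526 differed in the same direction between first and second lane as in OHC library 1. IHC values, set beside those of OHCs below, are therefore means of unlike lanes for these genes.

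All 5 OHC markers were found in every OHC library. Ocm, which encodes the calcium buffer oncomodulin, had 13579, 12729 and 12726 RPKM in OHC libraries 1 to 3, against 373 and 396 RPKM in the IHC libraries. Slc26a5 had 544, 553 and 550 RPKM in OHCs, against 10.1 and 8.91 RPKM in IHCs. Strc, which encodes stereocilin of the horizontal top connectors between stereocilia, had 43.1, 42.6 and 41.8 RPKM in OHCs, against 1.67 and 1.92 RPKM in IHCs, and Lbh, a transcriptional cofactor, had 16.5, 15.4 and 15.9 RPKM in OHCs, against 0.603 and 0.597 RPKM in IHCs. In each of these 4 genes all OHC libraries lay above both IHC libraries. The same held for Chrna10, the alpha10 subunit, with 529, 463 and 452 RPKM in OHCs and 10.4 and 11.3 RPKM in IHCs, but this gene is 1 of the 725: the lanes of library 1 gave 442 and 616 RPKM, those of the IHC libraries 8.57 and 12.2 RPKM and 10.2 and 12.4 RPKM, and 35.8% of its sequence words are shared with another gene. The 5 markers ranked 1st, 57th, 67th, 1380th and 3337th (Ocm, Slc26a5, Chrna10, Strc, Lbh), so that they stood between the first gene and the upper part of the 14705 detected genes, all above the median detected gene of 4.07 RPKM, as the curve of abundance by rank shows.

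**Figure D1:**
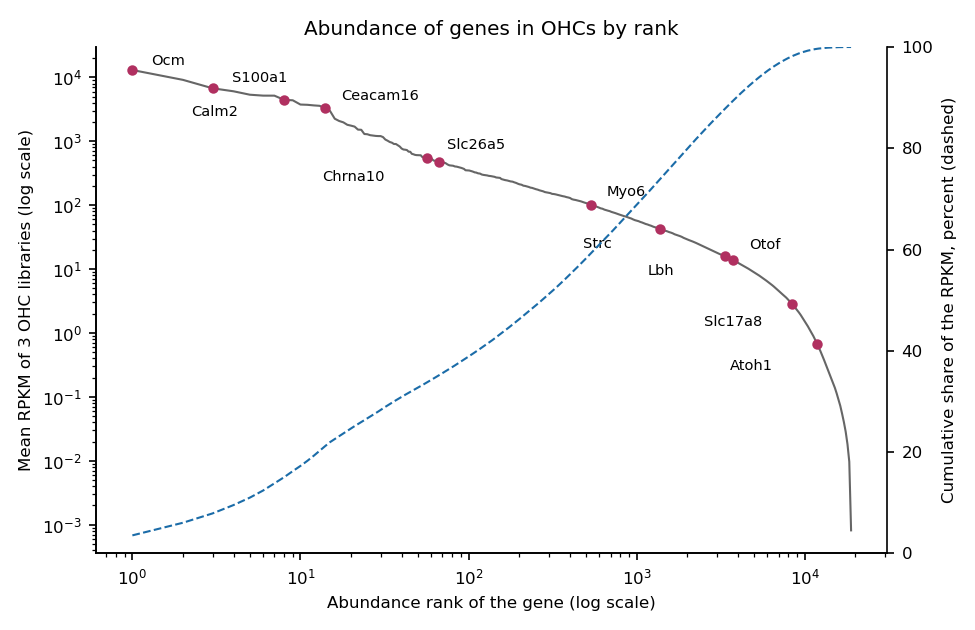
Mean RPKM of the 3 OHC libraries (left axis, log scale) against abundance rank (log scale), with named genes as points, and the cumulative share of the summed RPKM (right axis, percent, dashed). Ocm stands at rank 1 with 13011 RPKM and Slc26a5 at rank 57 with 549 RPKM, and the dashed line passes 50% at about the 273rd gene.

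The stretches around the start sites of 3 of these markers are shown because markers of one cell type, all higher in OHC than in IHC libraries, had start regions of very different make-up. They run from 250 bases before to 50 bases after the RefSeq start site (GRCm38.p6), 5′ to 3′ on the strand of the gene, at chr5:21865555-21865854 (minus strand) for Slc26a5, chr7:102116664-102116963 (minus strand) for Chrna10 and chr17:72918055-72918354 (plus strand) for Lbh. Capitals mark the dinucleotide CG and the motif TATAAA, searched on both strands.
Slc26a5: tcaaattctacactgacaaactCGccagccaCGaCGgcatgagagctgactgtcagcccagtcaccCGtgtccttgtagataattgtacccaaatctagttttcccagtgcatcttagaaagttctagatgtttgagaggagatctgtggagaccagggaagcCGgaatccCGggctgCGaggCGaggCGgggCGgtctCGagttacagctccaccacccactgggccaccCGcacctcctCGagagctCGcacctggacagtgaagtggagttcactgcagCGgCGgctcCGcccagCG
Chrna10: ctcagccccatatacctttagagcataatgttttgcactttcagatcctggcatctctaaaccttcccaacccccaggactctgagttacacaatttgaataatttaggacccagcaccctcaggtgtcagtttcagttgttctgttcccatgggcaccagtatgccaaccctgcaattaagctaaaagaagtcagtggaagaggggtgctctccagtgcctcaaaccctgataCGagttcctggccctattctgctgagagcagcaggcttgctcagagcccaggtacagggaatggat
Lbh: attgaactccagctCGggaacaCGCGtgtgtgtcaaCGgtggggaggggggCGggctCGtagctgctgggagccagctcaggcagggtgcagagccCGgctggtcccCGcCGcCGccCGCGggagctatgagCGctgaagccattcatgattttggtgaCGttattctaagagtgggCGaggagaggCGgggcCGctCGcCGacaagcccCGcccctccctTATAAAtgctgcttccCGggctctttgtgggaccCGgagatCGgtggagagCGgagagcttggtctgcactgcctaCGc
The windows hold 18, 1 and 25 CG dinucleotides (Slc26a5, Chrna10, Lbh), and the window of Lbh alone of the 3 holds TATAAA, beginning 29 bases before the start. The windows of the remaining OHC markers, not printed, hold 1 CG (Ocm) and 5 CG (Strc). The RefSeq start of Ocm lies outside its gene in the GENCODE annotation. Over all 32851 windows of the table the median was 7 CG, and 13.6% held TATAAA on either strand. The 22989 windows of genes with a listed level, which the classes below divide, had a median of 12 CG, and 12.3% held TATAAA. By level in OHCs, the 7336 windows of genes at 0 in every lane had a median of 3 CG, and TATAAA stood in 22.1% of them. Windows of genes above 0 and under 1 RPKM had a median of 11 CG (5229 windows), and those of genes with 1 to 10 RPKM (5929), 10 to 100 RPKM (4011) and 100 RPKM or more (484) had a median of 21 each. TATAAA was found in 10%, 6.44%, 6.58% and 8.06% of these 4 classes. Chrna10, with 1 CG, thus had a window like those of undetected genes in this count, at 481 RPKM. Windows of neighbouring starts of a gene overlap, so these are descriptions with no test, and a match is not a bound site.

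The OHC transcriptome was broad but steep. At least 0.1 RPKM was reached in all 3 libraries by 14705 of 48440 listed genes (30.4%), and by 12843 of 21683 protein-coding genes (59.2%). A value of 0 in all 6 lanes was listed for 29547 genes (61%), of which 6696 were protein-coding (30.9% of these). Per library, 15617 ± 6.56 genes reached 0.1 RPKM, 10991 ± 12.1 reached 1 RPKM, 4656 ± 16 reached 10 RPKM, 541 ± 2.65 reached 100 RPKM and 33.7 ± 0.577 reached 1000 RPKM. The median detected gene had 4.07 RPKM. The first gene, Ocm, held 3.56 ± 0.114% of the RPKM, the first 10 genes 17.3 ± 0.238%, the first 100 genes 38.9 ± 0.11% and the first 1000 genes 68.8 ± 0.122%. A share of 50% was reached with 273 ± 3.06 genes and 90% with 3907 ± 21.1 genes. Protein-coding genes held 95.4 ± 0.249% of the RPKM, lincRNAs 1.79 ± 0.0544%, pseudogenes 1.1 ± 0.156% and the mitochondrial rRNAs 0.552 ± 0.0103%.

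The 30 most abundant genes held 28.4 ± 0.156% of the RPKM, and 20 of them belong to one of the gene families described here. Calcium-binding proteins led. After Ocm stood S100a1, an EF-hand protein, with 7071, 6603 and 6540 RPKM (rank 3), and Calm2, one of 3 genes of the same calmodulin protein, with 4337, 4442 and 4540 RPKM (rank 8). Pcp4, a small peptide that binds calmodulin, ranked 4th with 6554, 5771 and 5809 RPKM, and its lanes in library 1 differed (5993 and 7115 RPKM). Transcripts of the mitochondrial genome filled 8 of the 30 places with mRNAs, led by mt-Atp6 (ATP synthase) with 8891, 9180 and 9305 RPKM, mt-Co3 with 5412, 5299 and 5324 RPKM and mt-Co1 with 5159, 5158 and 5183 RPKM, the last 2 encoding subunits of cytochrome oxidase. One further place was held by mt-Rnr2, the large ribosomal RNA of mitochondria (1519 ± 35 RPKM).

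Protein turnover was represented by partner proteins. Fbxo2, the receptor of a ubiquitin ligase for glycoproteins, had 5331, 5159 and 5024 RPKM (rank 6), and Skp1a, the adaptor that joins such F-box proteins to the ligase, had 3608, 3620 and 3683 RPKM (rank 12). Ubb, a gene of ubiquitin itself, averaged 3716 ± 128 RPKM (rank 11), with 3645 and 4078 RPKM in the lanes of library 1. Secreted and surface proteins followed. Ceacam16, a protein of the tectorial membrane, averaged 3292 ± 159 RPKM (rank 14), with 3343 and 3553 RPKM in the lanes of library 1, Clu, the secreted chaperone clusterin, 2976 ± 52.9 RPKM (rank 15), and Cldn9, a claudin of tight junctions, 1694 ± 52.9 RPKM (rank 21). Iron and redox genes were Ftl1, the ferritin light chain (1975 ± 68.7 RPKM), Gpx2, a glutathione peroxidase (1512 ± 23.1 RPKM), and Sepw1, selenoprotein W (1287 ± 50.8 RPKM).

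Several of the top genes fit no family. Plbd1, a phospholipase B-like protein, had 1822, 1809 and 1796 RPKM in OHCs, against 47.8 and 46.1 RPKM in IHCs. Acbd7, an acyl-CoA-binding protein, averaged 1754 ± 40.1 RPKM, Ndfip1, an adaptor of NEDD4-type ubiquitin ligases, 1298 ± 4.5 RPKM, and Itm2b, an integral membrane protein, 1204 ± 31.9 RPKM. Malat1, a nuclear long noncoding RNA, averaged 4373 ± 97.4 RPKM (rank 9). The predicted genes Gm8797, Gm5737 and Gm26825 ranked 26th, 27th and 30th. Gm5737 was even between libraries, with 1223, 1234 and 1223 RPKM. Gm8797 had 810, 1474 and 1447 RPKM, and its lanes in library 1 gave 1543 and 77.1 RPKM. Gm26825 had 1057, 1273 and 1281 RPKM, with 1265 and 850 RPKM in those lanes. Gm8797 and Gm26825 each share 96.5% of their words of 31 bases with another gene, so reads could be split between copies. The order within the 30 was firm only in part: 16 of the 29 pairs of neighbours overlapped in their ranges over libraries, and in 3 of these 16 the first gene was still above the next within every library. Ocm lay above mt-Atp6, and mt-Atp6 above S100a1, in every library, and S100a1 above Pcp4 within each library, although their ranges touched (S100a1 in library 3 had 6540 RPKM, Pcp4 in library 1 6554 RPKM). Fbxo2 and mt-Co1 changed places between libraries.

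**Figure D2:**
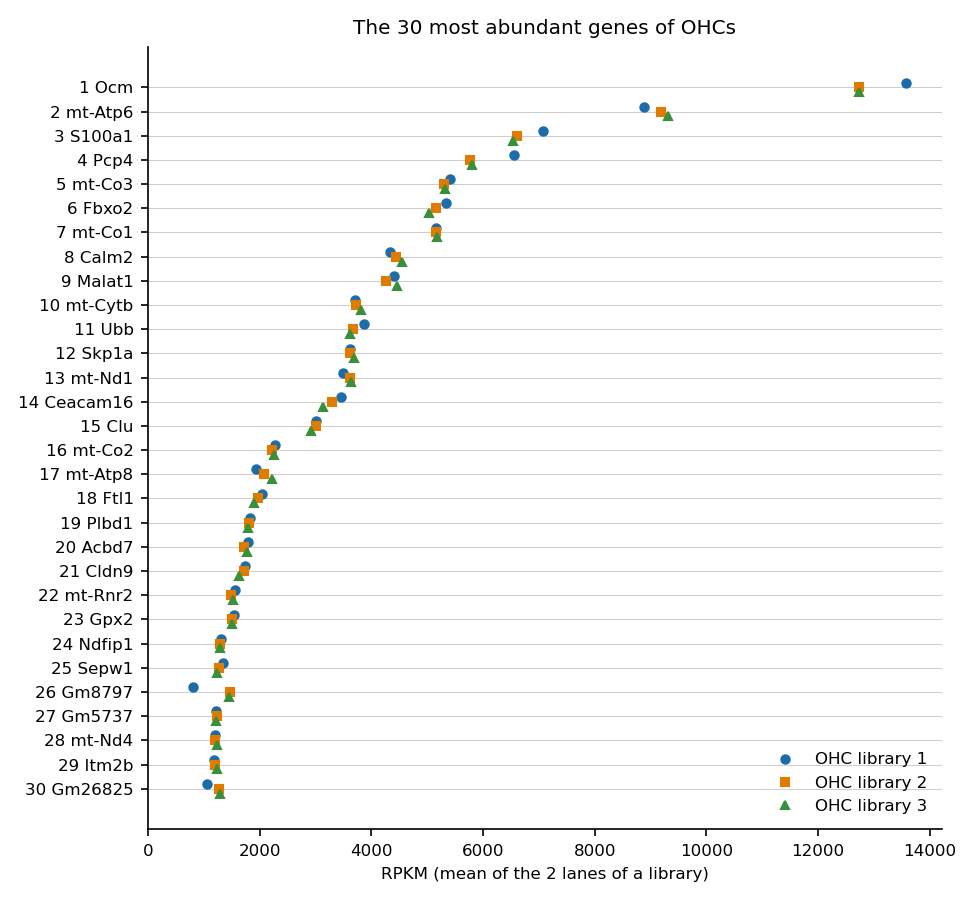
RPKM (horizontal axis, linear from 0) of the 30 most abundant genes in OHC libraries 1 (circles), 2 (squares) and 3 (triangles), by rank. Ocm lies apart at 12726 to 13579 RPKM, and Gm8797 and Gm26825 are lowest in library 1.

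RPKM rests on the gene length that the values were divided by, and the length behind a value was not always that of the gene in the current annotation. Of 14705 detected genes, 10017 had the same length in both and 1794 differed by more than 1.5 times. Among the first 100 genes, 18 had an annotated length over 1.5 times the one used. The value of Malat1 rests on 1834 bases, where the annotation gives 6983. If its reads were divided by the annotated length, Malat1 would stand at 1149 RPKM and rank 27. The annotated length joins all exons of a gene, and reads in the added bases were not counted anew. Values rescaled to a longer length may therefore lie below those of a new count. On the same scale Pcp4 would stand at 3776 RPKM (rank 8), Gpx2 at 501 RPKM (rank 53), Ndfip1 at 191 RPKM (rank 195) and Fth1, the ferritin heavy chain, at 290 RPKM (rank 110). Several genes described further on also have an annotated length over 1.5 times the one used. They are Lhfpl5, Ckb (202 RPKM on that scale), Aqp11 (134 RPKM), Grxcr2 (159 RPKM), Rps25, Pkm (77.6 RPKM) and Tmc1 (78.2 RPKM). Further ones are P2rx4 (32.5 RPKM), Atp2b1 (9 RPKM), Dnm3 (10.5 RPKM), Epb41 (7.42 RPKM), Pam16 (5.55 RPKM) and Ptprc. Itm2b would stand at 782 RPKM (rank 34). Of the 30 leading genes, 27 remained among the first 30, and Ocm, mt-Atp6 and S100a1 kept ranks 1 to 3.

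Of 27 gene families, the mitochondrial genome mRNAs held the largest share of the OHC RPKM, 9.29%, 9.5% and 9.69% in libraries 1 to 3 (mean 9.49 ± 0.198%), from 13 genes. Calcium buffers and sensors came next with 8.36%, 8.06% and 8.09% (mean 8.17 ± 0.166%), and the ranges of the 2 families did not overlap. On the scale of reads their order was the other way round, with 3.88% for calcium buffers and sensors and 3.69% for mitochondrial genome mRNAs. The 80 nuclear genes of the respiratory chain held 3.58 ± 0.121%, the proteasome and ubiquitin genes 2.93 ± 0.0179%, chaperones 1.9 ± 0.0107%, the proton pump and lysosome 1.5 ± 0.00694% and antioxidant enzymes 1.48 ± 0.0236%. The 81 cytosolic ribosomal protein genes held 1.1%, 0.995% and 0.978% (mean 1.02 ± 0.0667%). In all, 835 genes in families held 37.5 ± 0.295%. The counts of detected members given below stand beside 59.2% detected and 30.9% at 0 over all protein-coding genes. The plot of family shares shows that libraries differed far less than families did.

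**Figure D3:**
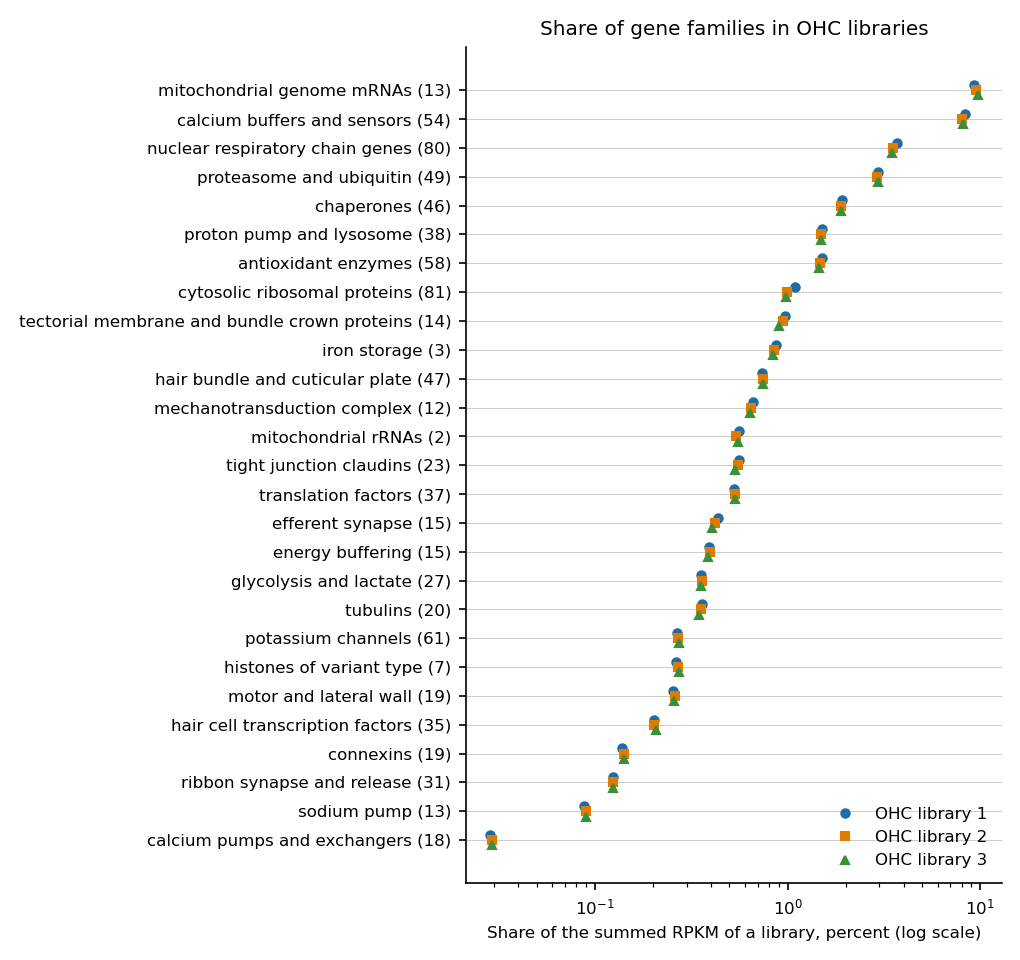
Share of the summed RPKM (horizontal axis, percent, log scale) of 27 gene families in OHC libraries 1 (circles), 2 (squares) and 3 (triangles), with the number of listed members in brackets. Shares run from 9.49% for mitochondrial genome mRNAs to 0.0291% for calcium pumps and exchangers.

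Mitochondria were represented through both genomes. All 13 mitochondrial mRNAs and all 80 nuclear respiratory genes were detected, with medians of 2074 and 140 RPKM over members, against 4.07 RPKM over all detected genes. Beside the 3 leading mitochondrial mRNAs stood mt-Cytb of complex III, with 3702, 3732 and 3819 RPKM. The lead among nuclear genes was held by Cox8a (905 ± 42.3 RPKM) and Cox6a1 (626 ± 57.8 RPKM), both of cytochrome oxidase, Uqcr11 of complex III (556 ± 47.9 RPKM) and Ndufa1 of complex I (483 ± 24.2 RPKM). Each of these 4 was highest in library 1 and lowest in library 3. Other genes, nuclear or mitochondrial, share sequence with 8 of the 13 mitochondrial mRNAs, which include mt-Atp6, mt-Co3 and mt-Co2 with 100% of their words shared.

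Ribosomal protein mRNAs were all present. The 81 genes were detected and 72 reached 10 RPKM, with a median of 30.8 RPKM, against 4.07 RPKM over all detected genes. Among the highest were Rps29 (221, 191 and 184 RPKM), Rpl4 (173, 174 and 183 RPKM), and Rps25 (154 ± 10.1 RPKM, or 39.2 RPKM with its annotated length). Other genes share sequence with 72 of the 81, and 14 of the 81 are among the genes whose lanes differ. Translation factors held 0.532 ± 0.00238%, led by Eif1 (348 ± 5.12 RPKM) and Eif5a (185 ± 3.34 RPKM). Eef1a1, the elongation factor that delivers aminoacyl-tRNA, had 181, 187 and 187 RPKM and made up nearly the whole of its pair with Eef1a2, the form of neurons and muscle (0.0327 ± 0.00848% of the pair).

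The calcium family was carried by a few members. Of 54 genes, 41 were detected, 29 reached 10 RPKM and 5 were at 0 in every lane (Cabp5, Necab1, Cib3, Cib4 and Hpcal4). The median member had 10.9 RPKM, so that the share of 8.17% came from the top. Among the 5 buffers of the parvalbumin and calbindin type, Ocm made up 96.7%, 96.6% and 96.5%, and Calb2 (calretinin), with 292, 282 and 289 RPKM, was next at 2.13 ± 0.0575%. Calm2 made up 81.8 ± 0.448% of the calmodulin RPKM. Cabp2, a calmodulin-like regulator of calcium channels, had 646, 637 and 622 RPKM and 98.4 ± 0.0622% of its set. Cib2, which binds the transduction channel, had 1003, 960 and 955 RPKM and 98.1 ± 0.015% of its set.

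Genes that move calcium out of the cytosol were low by comparison, with 0.0291 ± 0.000378% of the RPKM for 18 pumps and exchangers. Atp2b1 (18.5, 19.1 and 20.1 RPKM) and Atp2b2 (18.8, 18.6 and 18.7 RPKM) encode plasma membrane pumps, the second being the pump of the hair bundle. Their ranges overlapped, with 50.4 ± 1.16% and 49.1 ± 1.12% of the set, and neither led in every library. On the scale of reads, which is not divided by length, Atp2b2 led. Atp2c1, a pump of the Golgi, had 19.3 ± 0.845 RPKM and Atp2a2, the pump of the endoplasmic reticulum, 16.2 ± 0.196 RPKM. Atp2a2 held 63.8 ± 1.47% of the reticulum pumps and Atp2a3 35.8 ± 1.32%. Slc8a2 led the sodium-calcium exchangers with 80.2 ± 6.93%, at only 2.2 ± 0.0458 RPKM.

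The transduction complex held 0.648 ± 0.0111% of the RPKM, with 11 of 12 genes detected. Lhfpl5, a membrane protein that links the tip link to the channel, had 1042, 1013 and 1004 RPKM and ranked 33rd, next to Cib2, but with its annotated length it would stand at 533 RPKM and rank 52. The channel gene Tmc1 had 134, 140 and 140 RPKM and made up 80.3 ± 0.513% of 8 TMC genes. Tmc4 was next with 14.1 ± 0.0872%, Tmc5 was at 0 in every lane, and Tmc2, the channel form of young hair cells, had 0.054, 0.0298 and 0.0466 RPKM, which is 4, 2 and 3 reads. Ush1c, the scaffold harmonin, had 93.3 ± 0.689 RPKM, and Tmie, a channel subunit, 46.5 ± 0.711 RPKM. The tip link cadherins were much lower, Cdh23 with 6.81, 7.09 and 6.58 RPKM and Pcdh15 with 1.34, 1.42 and 1.45 RPKM. Within 1 protein complex the levels thus ran over more than 2 orders of magnitude. Tomt, a methyltransferase needed to bring TMC proteins to the bundle, had 69.1, 48.5 and 45.8 RPKM, is 1 of the 725 genes, with 47.5 and 90.6 RPKM in the lanes of library 1, and shares 72.6% of its words.

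In the hair bundle and cuticular plate, 45 of 47 genes were detected and 29 reached 10 RPKM, with 0.743 ± 0.00446% of the RPKM. Grxcr2, a regulator of stereocilia growth, led with 288, 283 and 282 RPKM, followed by Actg1, gamma-actin, with 265, 264 and 265 RPKM, and the actin bundler Fscn2 with 246, 250 and 244 RPKM. Smpx, a small cytoskeletal protein whose loss causes deafness, averaged 232 ± 2.98 RPKM. Paralogue choice was sharp in the actin core. Actg1 made up 91.1 ± 0.229% of the actins and Actb 8.63 ± 0.24%, Fscn2 99.8 ± 0.0559% of the fascins, and Pls1 86.1 ± 0.383% of the plastins, with Lcp1 next at 9.91 ± 0.147%. Among 24 unconventional myosins, Myo6, the motor that runs towards the base of the stereocilia, had 98.5, 100 and 103 RPKM and 56 ± 0.691% of the set. Myo15 followed with 15.7 ± 0.21%, and Myo3b, Myo1f, Myo1g and Myo18b were at 0. Tmod1, which caps actin filaments, led its set with 44.3 ± 3.39% and Lmod3 followed with 33.1 ± 2.49%. Tmod1 is 1 of the 725 genes, and the lanes of library 1 gave 80.4 and 116 RPKM.

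Tectorial membrane and bundle crown genes held 0.939 ± 0.0391%, and Ceacam16 alone held 0.9 ± 0.0386%. Otog, which encodes otogelin, followed with 46.4, 46.7 and 44.7 RPKM, then Strc, then Tectb, beta-tectorin, with 27.3, 26.3 and 26 RPKM. Tecta, alpha-tectorin, the main structural partner of beta-tectorin in the membrane, was at 0 in all 6 lanes, where 3 reads over the 3 libraries would be 0.00632 RPKM. Otop1, a proton channel needed for otoconia, was also at 0.

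Of the motor and the lateral wall, Slc26a5 made up 96.8 ± 0.135% of 11 SLC26 transporters, and Slc26a4 (pendrin) was next with 1.92 ± 0.12%. Aqp11, an aquaporin of the endoplasmic reticulum, had 301, 302 and 297 RPKM, or 88.6 ± 0.314% of 12 aquaporins, of which 6 were at 0. Genes of the cortical lattice were lower: Add1, adducin, had 32 ± 0.653 RPKM and Epb41, band 4.1, 13.4 ± 0.274 RPKM. Among spectrins no member reached 50%. Sptb led with 40.2 ± 0.26% and Sptbn1 followed with 33.1 ± 0.605%, and on the scale of reads Sptbn1 led. Slc2a5, the fructose transporter once placed in the lateral wall, was at 0 in every lane, with 3 reads over the libraries equal to 0.0138 RPKM. Among glucose transporters Slc2a1 led with 43.8 ± 0.269% at 26.3 ± 0.093 RPKM, followed by Slc2a10 with 25.8 ± 0.484%.

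Genes of the efferent synapse held 0.422 ± 0.0151%. C1ql1, a secreted C1q-like protein, led with 569, 542 and 509 RPKM. Chrna10 made up 61.8%, 58.2% and 57.8% of 9 nicotinic alpha subunits and Chrna9, with 323, 328 and 325 RPKM, 37.7%, 41.2% and 41.6%. Chrna10 lay above Chrna9 in every library, also in the first lane of library 1 (442 RPKM). Sh3gl3, an endophilin, had 167, 171 and 175 RPKM. Kcnn2, the SK channel that the receptor's calcium opens, had 14.6, 15.4 and 15.5 RPKM and 95.9 ± 0.959% of the SK channels. Subunits of the muscle receptor were split. Chrnd, Chrne, Chrng and the kinase Musk were at 0, whereas Chrna1 had 2.71, 2.89 and 3.01 RPKM.

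Genes of the afferent ribbon synapse held 0.125 ± 0.000412%, with 27 of 31 detected and 7 at 10 RPKM or more. Napa, an adaptor of SNARE recycling, led with 182 ± 2.75 RPKM, followed by Rab3a (89.8 ± 2.73 RPKM) and Vamp2 (56.9 ± 0.362 RPKM). Cacna1d, the pore of the L-type channel of hair cells, had 28.8, 29.4 and 29.2 RPKM and 98.1 ± 0.365% of 10 channel pores, of which 4 were at 0. Otof, the calcium sensor of release, had 14.2, 13.4 and 13.8 RPKM and 92.9 ± 0.512% of the otoferlin family. Slc17a8, the vesicular glutamate transporter VGLUT3, had 2.96, 2.67 and 2.79 RPKM and 75 ± 2.49% of its set, and Slc17a7 followed with 23.7 ± 2.58%. Cplx3 and Cplx4, complexins of the retina, were at 0.

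Of 61 potassium channel genes, 33 were detected, 8 reached 10 RPKM and 16 were at 0. These counts were near the shares over all protein-coding genes, 59.2% detected and 30.9% at 0. Most were low, with a median of 0.216 RPKM, against 0.7 RPKM over all protein-coding genes. The highest were the inward rectifiers Kcnj13 (207, 205 and 210 RPKM, with 42.3% of its words shared) and Kcnj16 (186, 187 and 197 RPKM), the leak channel Kcnk1 (172 ± 5.21 RPKM) and Lrrc52, an auxiliary subunit of calcium-activated channels (172 ± 3.27 RPKM). P2rx2, a channel gated by ATP, made up 80.9 ± 0.0855% of the P2X receptors at 290 ± 1.14 RPKM, and P2rx4 19 ± 0.0874%. Mcoln3, a cation channel of endosomes whose mutation deafens mice, made up 85.3 ± 0.505% of the TRPML channels.

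Junctions and the sodium pump followed the same pattern of 1 leading member. Cldn9 held 87.2 ± 0.0778% of 21 claudins and Cldn14, mutated in deafness, 4.62 ± 0.22%, while Cldn1, Cldn2, Cldn16, Cldn18, Cldn19 and Cldn20 were at 0. The connexins Gjb6 (391, 393 and 395 RPKM) and Gjb2 (119, 121 and 122 RPKM) held 76.4 ± 0.164% and 23.4 ± 0.157% of 18 connexins, of which 9 were at 0. Both are known as genes of supporting cells. Atp1b1 held 52.8 ± 0.49% of the sodium pump beta subunits at 109 ± 2.16 RPKM, and Atp1b3 followed with 31.9 ± 0.184%.

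In energy metabolism, Ldhb, the lactate dehydrogenase form of oxidative tissues, had 470, 465 and 471 RPKM and 95.3 ± 0.112% of its set, against 4.7 ± 0.112% for Ldha. Ckb, the brain creatine kinase, had 402, 399 and 384 RPKM, and its muscle counterpart Ckm was at 0. Glycolysis genes held 0.357 ± 0.000663%, with Pgam1 (193 ± 3.13 RPKM), Aldoa (176 ± 3.59 RPKM) and Pkm (149 ± 2.03 RPKM) after Ldhb, and Pgk2 and Pklr at 0. Slc25a5 held 64.5 ± 0.545% of the adenine nucleotide carriers. Hk1 led the hexokinases with 60.7 ± 0.701%.

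Of the stress and clearance genes, Gpx2 held 73.2 ± 0.312% of the glutathione peroxidases and Gpx4 17 ± 0.212%. The value of Gpx2 rests on the shorter gene length described above. Mgst1 made up 79.3 ± 1.15% of the microsomal glutathione transferases, whereas the 6 peroxiredoxins were all detected with none above 50%, Prdx5 leading with 30.1 ± 0.825%. Clu accounted for 0.814 ± 0.0116% of the 1.9% held by chaperones, and was followed by Hspa2 (415 ± 6.51 RPKM), Hspa5 (403 ± 6.24 RPKM) and Hsp90ab1 (347 ± 3.79 RPKM). Lysosomal genes were led by Cst3, a protease inhibitor (863 ± 30.3 RPKM), Lamp1 (555 ± 7.1 RPKM) and the proton pump subunit Atp6v1g1 (554 ± 8.71 RPKM). Atp6v1b1, the pump subunit of kidney and ear epithelia, was at 0.

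Transcription factors of hair cells held 0.205 ± 0.00178%, with 29 of 35 detected and 15 at 10 RPKM or more. Six2 led with 127, 120 and 119 RPKM, above Gata3 with 114, 116 and 115 RPKM, Isl1 with 90.6, 94.9 and 96.3 RPKM and Gfi1 with 86.7, 88.3 and 90.8 RPKM. Pou4f3, a factor that hair cells need to survive, had 89.6, 83 and 87.5 RPKM, and its relatives Pou4f1 and Pou4f2 were at 0. Six2 held 71.2 ± 1.34% of its family of homeobox factors. Rfx5 led the RFX factors with 57 ± 2.85%, and Rfx3 followed with 15.5 ± 0.278%, and Rfx5 is 1 of the 725 genes, with 5.38 and 7.25 RPKM in the lanes of library 1. Ikzf5 and Ikzf2 held 55.7 ± 2.24% and 42.1 ± 2.27% of the Ikaros factors. Ikzf5 shares 82.2% of its words with another gene, and Ikzf2, which encodes helios, led on the scale of reads. Pax2, Insm1 and Nhlh1, factors of early ear or neuronal development, were at 0.

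Over all 48 paralogue sets, 298 genes were listed, 189 were detected and 65 were at 0. Over all protein-coding genes 59.2% were detected and 30.9% were at 0, so the detected share of the sets was near the general one. In 41 sets the leading member held more than 50% in every library, and in 15 sets more than 90%. In sets of 2 genes (cytosolic creatine kinases, elongation factor 1 alpha and cytosolic HSP90) the leading member holds at least 50% by construction. Sets of like size from other genes were not counted, so these counts have no background. The leading gene was the same in every library in 46 sets. The exceptions were Atp2b1 with Atp2b2, described above, and the dynamins Dnm2 and Dnm3, with 45.6 ± 0.859% and 45.6 ± 0.26%, in both of which the ranges overlapped. Dnm2 is among the genes whose lanes differ, with 18.1 and 15.1 RPKM in library 1, and from the second lanes alone Dnm3 led. From the first lanes alone the leading gene changed in 0 sets.

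**Figure D4:**
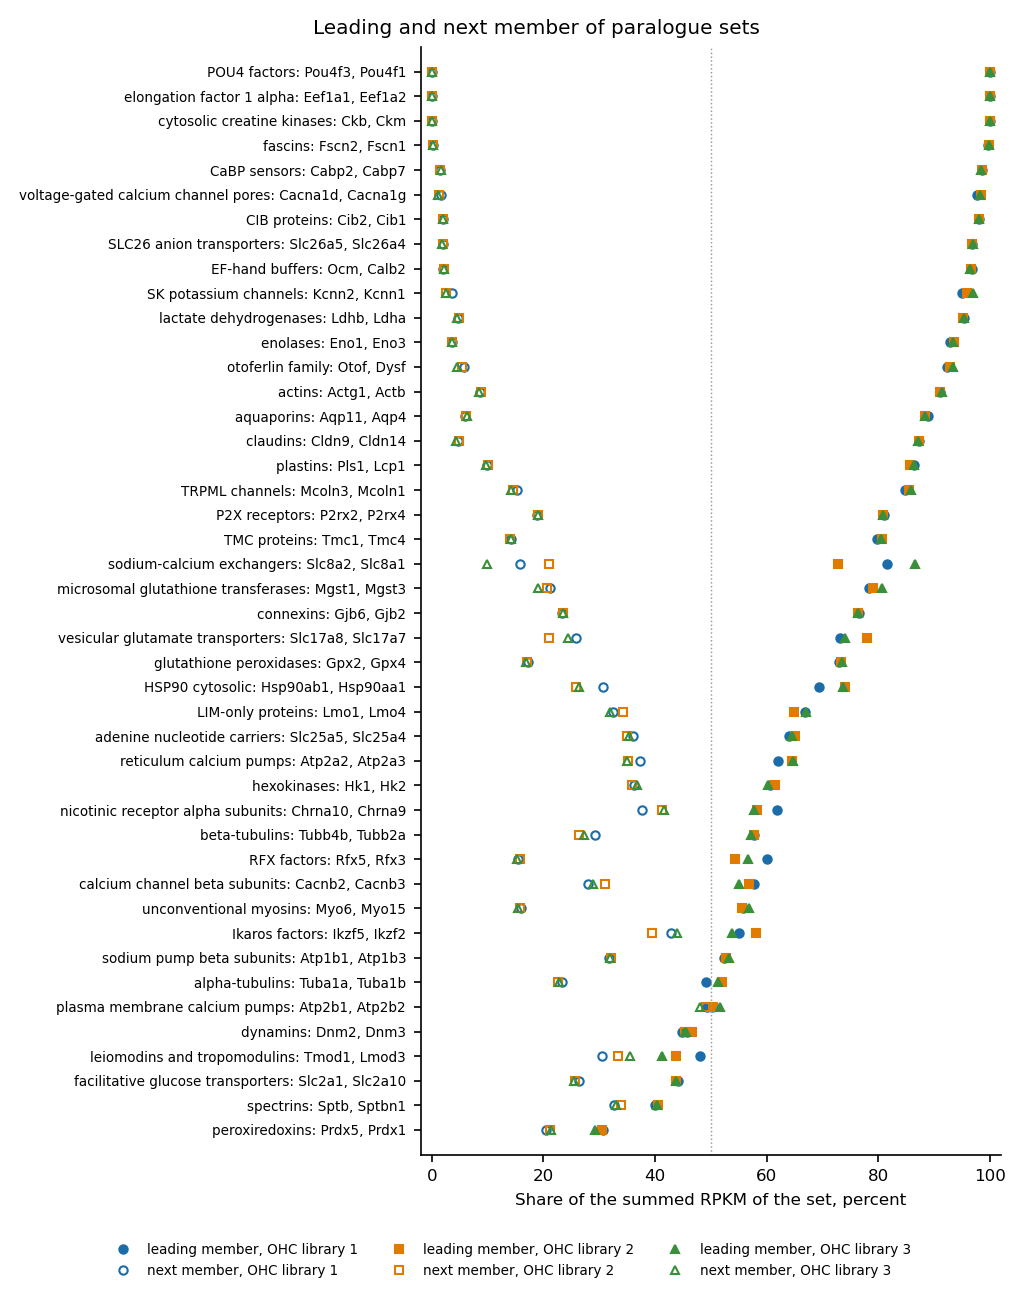
Share of the summed RPKM of a paralogue set (horizontal axis, percent) held by its leading member (filled) and next member (open) in OHC libraries 1 (circles), 2 (squares) and 3 (triangles), for 44 of the 48 sets in order of the leading share. The dotted line marks 50%, which the leading member passed in every library in 37 of the 44 sets.

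Several groups of genes were at 0 in OHCs for most or all members. Of 1059 olfactory receptor genes, 1043 (98.5%) were at 0 in every lane, 5 were detected, and the highest, Olfr1512, had 0.69 RPKM. The same held for 288 of 291 vomeronasal receptors (99%), for 33 of 38 taste receptors (86.8%), of which only Tas1r1 was detected, with 3.65 RPKM, for all 53 keratin-associated proteins, all 15 alpha and beta interferons and all 39 HOX factors. These shares stand beside 30.9% at 0 over all protein-coding genes. Keratins were divided: 37 of 53 were at 0, while Krt19, an epithelial keratin, reached 62.6 RPKM. Of 42 beta-defensins, 40 were at 0, and Defb25 stood alone with 178 RPKM. In 2 further groups the share at 0 was near that over all protein-coding genes, but the detected share was below the 59.2% over those genes. Of 57 clustered protocadherins, which give neurons their surface identity, 19 (33.3%) were at 0 and 14 were detected, none above 0.786 RPKM. Of 19 crystallins, 7 (36.8%) were at 0 and 7 were detected, and Cryab, a small heat shock protein, was highest with 176 RPKM.

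Markers of other cell types were present at several levels, and their part in the values above was not tested. Of 6 IHC markers, 5 were detected in OHCs and Fgf8 was at 0 in all OHC and IHC lanes. Their summed level was 301 to 312 RPKM in OHCs, against 5447 and 5517 RPKM in IHCs, and Calb2 made up most of it. Otof had 214 and 207 RPKM in IHCs, Slc17a8 48.7 and 51.6 RPKM, beside the OHC values given above. Tbx2, a factor of IHC fate, had 3, 2.86 and 2.39 RPKM in OHCs, against 79.8 and 76.3 RPKM in IHCs. All 10 supporting cell markers were detected, with a sum of 789 to 791 RPKM in OHCs and 1216 to 1217 RPKM in IHCs, and Sox2, a defining marker, had 10.5, 10 and 10.6 RPKM in OHCs, against 20.3 and 20.7 RPKM in IHCs.

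Of 8 fibrocyte and bone markers, 7 were detected with a sum of 765 to 801 RPKM in OHCs and 410 to 419 RPKM in IHCs, carried by Sparc (413 ± 3.51 RPKM in OHCs), Otos and Coch, while Col1a1, the main collagen of bone, had 0.0834 RPKM. Erythrocyte markers summed to 1552 to 1666 RPKM in OHCs, against 343 and 356 RPKM in IHCs. Hba-a2 ranked 43rd in OHCs with 594, 798 and 792 RPKM, and its lanes in library 1 gave 886 and 302 RPKM. From the first lanes alone the erythrocyte markers summed to 1563 to 1739 RPKM in OHCs, against 360 and 369 RPKM in IHCs. Neutrophil markers summed to 90 to 91.7 RPKM in OHCs, against 0.828 and 1.15 RPKM in IHCs, with 7 of 8 detected. Other leukocyte markers summed to 29.8 to 33.1 RPKM in OHCs and 14 to 14.1 RPKM in IHCs, with Cd3e of T cells at 0 and Ptprc, which all leukocytes carry, at 0.0127 RPKM. Spiral ganglion neuron markers summed to 39.9 to 40.5 RPKM in OHCs and 67.9 to 70.7 RPKM in IHCs. Markers of the stria vascularis summed to 51.3 to 51.5 RPKM in OHCs and 66.6 RPKM in both IHC libraries, those of Schwann cells and glia to 16.6 to 18.1 RPKM in OHCs and 28.1 to 30.3 RPKM in IHCs, and those of vessels to 1.95 to 2.09 RPKM in OHCs and 1.32 to 1.39 RPKM in IHCs.

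**Figure D5:**
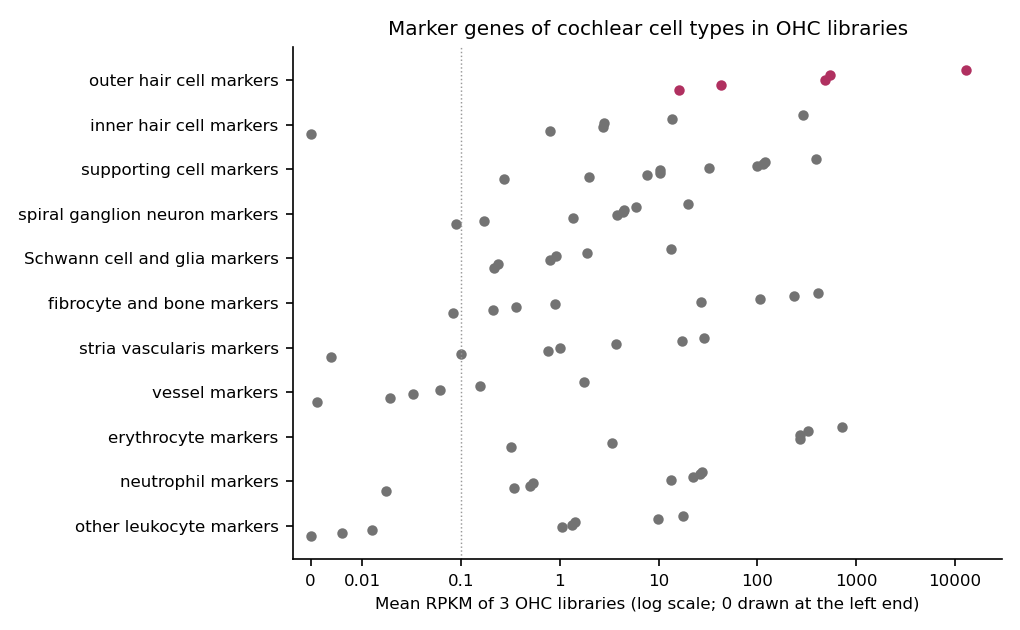
Mean RPKM of the 3 OHC libraries (horizontal axis, log scale, 0 drawn at the left end) for each marker gene of 11 cell type lists, OHC markers in red. The dotted line marks the detection limit of 0.1 RPKM, which all 5 OHC markers passed and most vessel markers did not.

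The 3 libraries resembled each other closely. Over 4668 genes that averaged 10 RPKM or more, the coefficient of variation had a median of 3.19% (quartiles 1.95% and 5.06%). Above 20% lay 137 genes (2.93%), and 133 of these were among the genes whose lanes differ in library 1. From the first lanes alone, 8 of 4662 genes (0.172%) lay above 20%. The 10 most variable genes were Rpl27-ps3, Gm10053, Nutf2-ps1, Tmem254a, Rnasek, Timm23, Tmem254c, Pam16, Rps27rt and Hist2h2aa1, and all were high in the second lane of library 1 and low in the other 5 OHC lanes. Rnasek, for example, had 195 RPKM in that lane and 8.19 to 9.31 RPKM in the other OHC lanes. In the IHC libraries it had 12.9 and 11.2 RPKM in the first lanes and 253 and 264 RPKM in the second lanes. Each of the 10 shares between 37.2% and 100% of its words with another gene.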

How the data were processed

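RNA-seq of 3 OHC and 2 IHC libraries was used, each of 2 lanes. The authors mapped paired reads of 100 bases to GRCm38 (mm10) with CLC Genomics Workbench, counted them with HTSeq (versions not given in the sources used here) at a Phred score of at least 30, and deposited RPKM per lane with Ensembl gene names. The labels name the SMARTer Low Input kit for cDNA, and the paper another version of it and a slightly wider age range. The table has 0 columns of no sample.

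Lanes were averaged to libraries, and the samples were grouped by the cell type in the labels. Nothing was tested between groups. The number of reads of each lane was inferred from its RPKM values and the exon lengths (GENCODE M21). Reads of a gene were recovered by multiplying RPKM by exon length and that number. This gave whole reads, within 0.01, for 70.2% to 70.6% of values of an OHC lane. For 5737 of 19961 detected genes another length, up to 120000 bases, was found from the values (within 1e-05 of whole reads). The shortest was taken. For 382 identifiers the annotation has no entry, and 185 symbols came from it. The lane test was tested on simulated data. Sharing was the percentage of words of 31 bases, 1 in 8, found in another gene (10% or more counts as sharing). Promoters came from RefSeq (GRCm38.p6, 27025 genes, of which 18877 matched).

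The members and gene lists were chosen with earlier results of these data known. Named genes are the 30 highest, the markers, up to 4 highest members and members at 0 of each family, the leading, next and zero members of each paralogue set, and the 10 most variable genes. Cdh23, Pcdh15, Tmc2, Tomt, Tmie, Chrna1, mt-Atp8, mt-Nd3, mt-Nd4l, mt-Nd6, Gm29216, the highest members of the undetected groups and the genes that annotated lengths moved were chosen after their values were seen. Alternatives tried were other detection limits, single lanes, fewer genes, fewer libraries, reads in place of RPKM and, added after seeing the data, annotated lengths and library 1 without its second lane. Some genes are not reported here. The tools were Python 3.11.15, scipy 1.17.1, pandas 2.3.3, numpy 2.4.6 and, for figures, matplotlib 3.10.9.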

Additional observations from a re-analysis of the deposited data

How the results depend on the processing

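The number of detected genes stayed within 1.5 times of 14705 under every alternative run, from 10636 at 1 RPKM to 16749 above 0 RPKM, and without each library in turn it was 14962 to 15004. The number of genes that hold 50% of the RPKM was 273, and counted as reads, without division by length, it was 728. It was 272 to 275 without each library in turn and 256 to 384 under the other alternatives. The share of Ocm was 1.1% as reads, against 3.56%, that of mitochondrial genome mRNAs 3.69%, against 9.49%, that of calcium buffers and sensors 3.88%, against 8.17%, and that of cytosolic ribosomal proteins 0.575%, against 1.02%, since reads are not divided by gene length. Without mitochondrial genes the shares of Ocm, calcium genes and ribosomal proteins were 3.96%, 9.09% and 1.14%. Without the genes whose lanes differ, the shares of Ocm, mitochondrial mRNAs and calcium genes were 3.93%, 10.5% and 9.02%. With annotated lengths they were 3.98%, 10.6% and 8.9%. In the last 3 alternatives the sum over all genes changed by construction. Without each library in turn the shares were 3.49% to 3.59% (Ocm), 9.4% to 9.6% (mitochondrial mRNAs), 8.07% to 8.22% (calcium genes) and 0.986% to 1.05% (ribosomal proteins). Of the 24 other families, 9 moved by over 1.5 times as reads and 2 without the genes whose lanes differ, and 0 under the remaining alternatives. The 2 were tectorial membrane and bundle crown proteins (0.0431%, against 0.939%) and tubulins (0.0577%, against 0.354%). Their leading members, Ceacam16 and Tuba1a, are among the genes left out. The number of paralogue sets with 1 member above 50% was 41 to 43 under all alternatives, with 37 of the original sets kept as reads, 37 without the genes whose lanes differ, 39 with annotated lengths and 41 otherwise. The leading gene changed in 5, 6 and 1 sets under these 3, and in the dynamins also from second lanes and without library 2. No paired analysis was possible because no result comes from a test between groups.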

Other observations

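The libraries differed slightly by gene length, which was looked at after the data had been seen. Over the first lanes, the median log2 ratio of library 1 over library 3 was 0.14 in 58 genes of up to 500 bases, 0.11 in 303 genes of 500 to 1000 bases and -0.03 in 492 genes over 6000 bases. For library 1 over library 2 these medians were 0.11, 0.07 and -0.03, and for library 2 over library 3 they were 0.03, 0.02 and -0.01. Among short genes, Ocm, S100a1 and Cox6a1 were highest in library 1, whereas mt-Atp6 (8891, 9180 and 9305 RPKM), mt-Atp8 (1933, 2072 and 2216 RPKM) and mt-Nd3 (217, 224 and 221 RPKM) were lowest there. Of the other mitochondrial mRNAs of up to 1000 bases, mt-Nd1 (3493, 3612 and 3643 RPKM) and mt-Nd6 (285, 291 and 291 RPKM) were also lowest in library 1. Going the other way, mt-Co3 (5412, 5299 and 5324 RPKM) and mt-Co2 (2270, 2224 and 2260 RPKM) were highest in library 1. For mt-Nd4l (192, 200 and 186 RPKM) library 1 lay between the others. The part of this trend in their values was not tested.

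The predicted pseudogene Gm29216 ranked 36th in OHCs with 559, 1084 and 1074 RPKM, and the lanes of library 1 gave 1110 and 8.47 RPKM. It shares 96.4% of its words with another gene.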
